A study of Mus musculus with 10 samples.

Results

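The genes described here encode the Wnt ligands, their Frizzled receptors and 2 families of secreted antagonists, and the measurement is the methylation of cytosines near the ends of these genes. Members were all autosomal protein-coding genes of the RefSeq table of GRCm38 whose symbol starts with Wnt, Fzd, Sfrp or Dkk followed by a digit. This rule gave 37 of 20665 autosomal protein-coding genes, of which 19 were ligands (Wnt), 10 receptors (Fzd) and 8 antagonists (Sfrp and Dkk). The rule used no measured value.

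The DNA came from mouse embryos at embryonic day 7.5 and was read by reduced representation bisulfite sequencing, which covers CpG-rich fragments and reads unmethylated cytosines as thymines. The titles name 5 control and 5 arsenic samples. The sources used here do not state strain, sex, pooling of embryos, or the form, dose and route of arsenic, and no treatment is known that both groups share. Counts come in 10 numbered sets, here called library columns, and since these numbers name neither sample nor group, control and arsenic were not compared. Values are given over the summed calls and as the lowest, median and highest column.

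Wnt proteins are secreted, lipid-modified signals that bind Frizzled receptors on the cell surface together with the co-receptors Lrp5 and Lrp6, and the canonical branch of the pathway stabilises beta-catenin, which then acts with Tcf and Lef factors in the nucleus. Secreted frizzled-related proteins (Sfrp) carry a domain like that of the receptors and bind Wnt proteins, while Dickkopf proteins (Dkk) act mainly on the co-receptors. In the gastrulating mouse embryo, Wnt signals are needed on the posterior side to form the primitive streak, and antagonists on the anterior side protect the future head. Methylation of a CpG-rich gene start is, as general background, associated with stable silencing, whereas an unmethylated start need not be active.

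The level at a gene end is the share of methylated calls among all calls at positions within 1000 bp of that end, in percent, where at least 3 positions were measured. The RefSeq promoter table gave the strand, and so the start, of 25 members. Those not in that table were Wnt5a, Wnt7b, Wnt8a, Wnt10a, Fzd2, Fzd3, Fzd6, Fzd8, Sfrp1, Sfrp4, Dkk3 and Dkk4, and for these 12 the end that held more measured positions stands in, called the better measured end, which can be the 3' end. Of the 74 ends of the 37 genes, 42 were measured. A start or better measured end was measured for 32 genes, namely 15 ligands, 9 receptors and 8 antagonists, with 7 to 130 positions and 1938 to 67165 calls each. Wnt6, Wnt8b and Wnt16 were measured at the far end only, and Wnt7a and Fzd6 at neither end. Over all autosomal positions, the summed coverage of a column ranged from 72552114 to 126221282, and the median coverage of a position from 26.0 to 48.0 reads. Reads without molecular identifiers are not independent molecules, neighbouring positions share reads, and the 95% Wilson intervals below cover counting error only.

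The starts of 6 members are printed because they span the range from many to few CpGs and from nearly unmethylated to partly methylated DNA, and because many of their cytosines were measured. Each run holds 250 bases before and 50 after the start, 5' to 3' on the gene's strand, from RefSeq (GRCm38.p6, the assembly to which mm10 corresponds). Capitals mark the CpGs with at least 1 measured cytosine on either strand.
Wnt9a, chr11:59306680-59306979, plus strand: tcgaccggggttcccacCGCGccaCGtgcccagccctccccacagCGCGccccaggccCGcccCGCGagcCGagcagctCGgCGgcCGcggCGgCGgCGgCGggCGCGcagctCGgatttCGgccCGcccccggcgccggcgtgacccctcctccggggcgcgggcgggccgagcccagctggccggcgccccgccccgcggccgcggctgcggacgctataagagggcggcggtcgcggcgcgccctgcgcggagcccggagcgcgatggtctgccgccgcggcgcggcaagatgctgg
Wnt3, chr11:103773925-103774224, plus strand: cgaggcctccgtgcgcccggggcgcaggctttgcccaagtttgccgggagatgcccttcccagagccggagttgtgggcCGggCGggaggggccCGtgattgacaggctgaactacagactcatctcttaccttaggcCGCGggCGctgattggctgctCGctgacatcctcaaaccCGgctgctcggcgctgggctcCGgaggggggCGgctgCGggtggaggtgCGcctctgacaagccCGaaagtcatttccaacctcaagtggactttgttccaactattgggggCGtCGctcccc
Wnt1, chr15:98789607-98789906, plus strand: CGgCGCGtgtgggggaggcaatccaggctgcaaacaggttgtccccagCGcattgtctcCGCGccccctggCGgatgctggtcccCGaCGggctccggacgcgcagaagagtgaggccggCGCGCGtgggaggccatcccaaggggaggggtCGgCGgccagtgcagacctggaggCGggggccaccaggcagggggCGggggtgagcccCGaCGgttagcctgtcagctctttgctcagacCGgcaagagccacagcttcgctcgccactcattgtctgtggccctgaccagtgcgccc
Wnt2, chr6:18030396-18030695, minus strand: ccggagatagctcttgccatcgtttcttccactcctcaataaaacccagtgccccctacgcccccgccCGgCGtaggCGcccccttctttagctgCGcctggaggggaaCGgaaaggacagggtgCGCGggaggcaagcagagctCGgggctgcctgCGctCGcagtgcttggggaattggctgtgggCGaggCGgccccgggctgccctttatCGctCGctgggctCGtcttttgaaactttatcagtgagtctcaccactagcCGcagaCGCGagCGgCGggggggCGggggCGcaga
Fzd9, chr5:135250998-135251297, minus strand: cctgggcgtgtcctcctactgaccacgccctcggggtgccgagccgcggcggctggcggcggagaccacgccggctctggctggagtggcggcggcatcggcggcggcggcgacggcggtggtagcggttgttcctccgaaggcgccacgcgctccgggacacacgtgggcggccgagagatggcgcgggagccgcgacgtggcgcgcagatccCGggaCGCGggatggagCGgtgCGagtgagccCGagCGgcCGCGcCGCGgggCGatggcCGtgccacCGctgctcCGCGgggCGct
Dkk1, chr19:30549447-30549746, minus strand: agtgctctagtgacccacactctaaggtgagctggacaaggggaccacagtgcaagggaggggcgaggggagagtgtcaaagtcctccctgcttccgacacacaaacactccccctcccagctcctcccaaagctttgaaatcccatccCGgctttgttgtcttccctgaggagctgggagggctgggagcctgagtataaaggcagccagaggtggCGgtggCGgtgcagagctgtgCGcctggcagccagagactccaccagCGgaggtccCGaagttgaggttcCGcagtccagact
All 304 measured positions in the members' promoters of the RefSeq table fell on a CpG cytosine of these RefSeq sequences.

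The printed starts differ in how many CpGs they hold and in how evenly their methylation is spread. The Wnt9a promoter had 58 CpGs, of which the 21 measured cytosines lay between 0 and 3.57%, with a median of 0.602%. The Fzd9 promoter had 53 CpGs, and its 33 measured cytosines had a median of 0.823% and a highest level of 5.65%. The Wnt3 promoter, with 24 CpGs and 27 measured cytosines, had a median of 1.30% and a highest level of 7.65%. The Wnt1 and Wnt2 promoters held a similar number of CpGs, 26 and 27, and their methylation was uneven. In Wnt1, 12 of 20 measured cytosines were under 5% and 5 were at 10% or more, the highest being 18.8% at the CpG that opens the printed run. In Wnt2, 7 of 22 cytosines were at 10% or more, and 6 of these lay next to each other, from base 110 to base 162 of the printed run, at 11.9 to 20.1%. The Dkk1 promoter had only 9 CpGs. Its 7 measured cytosines before the start lay between 0.926 and 3.51%, and its 6 after the start between 9.09 and 20.7%, so that the level changed within the 300 bases. The higher level did not hold further into the gene. Dkk1 had 6.60% from 0 to 250 bp after the start, 5.56% from 250 to 500 bp and 2.36% from 500 to 750 bp. The CpGs after the start were read on both strands, and at the last CpG of the printed run the strands gave 20.7 and 20.6%. At base 265 of the run they gave 13.3 and 9.09%. At base 274 the plus strand of the chromosome gave 10.4% and the minus strand about 20%. Among the CpGs after the start, the strands were thus close at the last one only.

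Promoters of ligands and receptors were CpG-rich. The 18 ligand promoters in the RefSeq table, some genes having several, held a median of 28.0 CpGs in 300 bases and the 6 receptor promoters 35.0, against 14.0 over 20085 promoters of autosomal protein-coding genes. The 4 antagonist promoters had a median of 13.0. At least 20 CpGs were present in 13 of 18 ligand, 5 of 6 receptor and 1 of 4 antagonist promoters, and in 37.1% of all promoters. The letters CCGG, the site cut by the enzyme most often used for this assay, were searched on both strands, which is the same search because the motif is its own reverse complement. CCGG was present in 25 of 28 member promoters and in 63.5% of all promoters.

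Receptor starts were the least methylated of the 3 classes and antagonist starts the most. The median start level was 1.09% over 9 receptors, 4.93% over 15 ligands and 8.18% over 8 antagonists, against 2.40% over 13294 genes. By column, the receptor median ranged from 1.10 to 1.53%, the ligand median from 4.26 to 7.24%, the antagonist median from 7.12 to 11.2% and the median of all genes from 2.32 to 2.67%. In 10 of 10 columns the receptors lay below all genes, the ligands above all genes and the antagonists above the ligands. The classes consist of different genes and the columns share these genes, so this order describes these genes and was not tested.

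**Figure D1:**
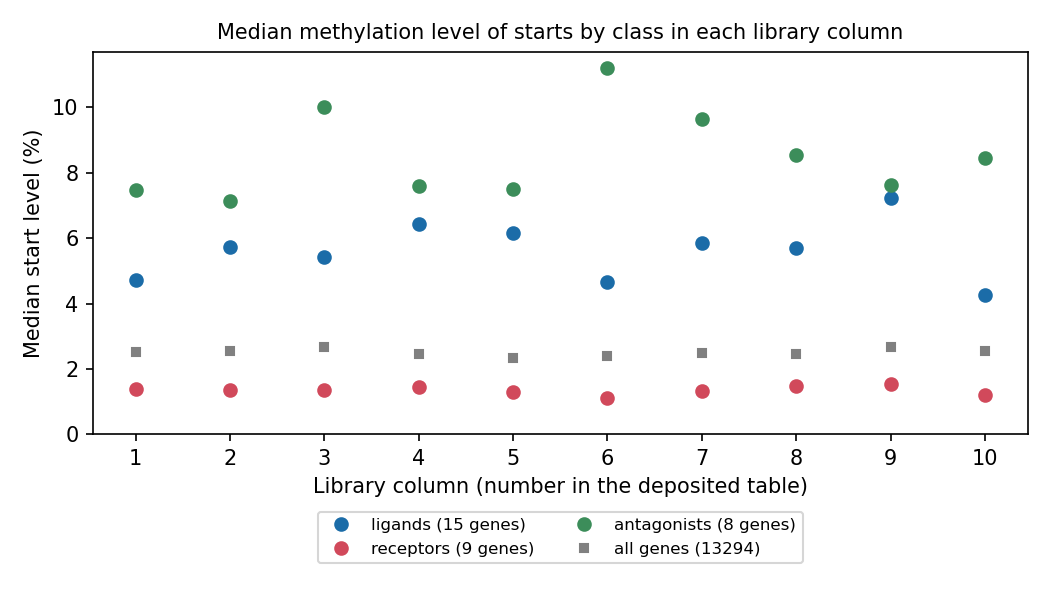
Median methylation level of starts (y axis, percent) in each of the 10 library columns (x axis) for ligands, receptors, antagonists and all genes, 1 point per class and column. The receptor points, 1.10 to 1.53%, lie below those of all genes in each column, and the ligand and antagonist points above them.

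A level under 20% was found at 13 of 15 ligand, 9 of 9 receptor and 7 of 8 antagonist starts, or 29 of 32 in all, and at 80.9% of the starts of all genes, so this count was near the background. The classes parted at a lower level, chosen after the values were seen. A start under 2% was found for 6 of 9 receptors, for 2 of 15 ligands (Wnt4 and Wnt9a) and for 0 of 8 antagonists, against 45.8% of all genes. Among the 21 members of known strand, the medians were 1.41% for 6 receptors, 4.51% for 11 ligands and 6.66% for 4 antagonists, against 2.17% for 10359 genes. With windows of 2000 bp, the medians were 2.97% for receptors, 5.69% for ligands and 9.43% for antagonists. That of all genes was then 5.24%, close to the ligands. With windows of 500 bp, the medians were 1.11, 5.94 and 8.23%, and that of all genes was 1.43%, close to the receptors.

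Members of known strand were also set beside genes with as many CpGs in the promoter. With 20 to 39 CpGs, the 4 ligands Wnt1, Wnt2, Wnt3 and Wnt9b had start levels of 9.57 to 19.6%, the antagonist Sfrp2 8.63% and the 3 receptors Fzd4, Fzd5 and Fzd7 0.736 to 1.72%, and the median of all 8 was 9.10%, against 1.48% for 4735 genes. At the promoter-table starts, where the CpGs were counted, the median in this group was 2.64% over 9 members, which then include Wnt6, and 1.45% over 4982 genes. There the 5 ligands ranged from 0.387% in Wnt6 and 2.64% in Wnt9b to 9.68% in Wnt1, and Sfrp2 had 11.7%. With 40 CpGs or more, 6 ligands and 2 receptors had a median of 3.34% and 770 genes 1.24%. In this group the receptors, at 2.20 and 4.82%, were not below the ligands, at 1.21 to 4.65% with a median of 3.34%. With fewer than 20 CpGs, 5 members had 5.52% and 4854 genes 5.74%. Across the 10359 genes, Spearman's rho between the CpG number and the start level was -0.450, and across the 21 members -0.331. Genes share libraries and base composition and are not replicates, so these values are descriptions.

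Among the ligands, the lowest levels at outer gene ends used as starts were those of Wnt4 and Wnt9a. Wnt4, which acts in kidney and female gonad development, had a level of 1.21% (95% interval 1.05 to 1.39%, 35 positions, chromosome 4 from 137276635 to 137278635), and its columns ranged from 0.559 to 1.91% with a median of 1.28%. Wnt9a, which acts in joints and liver, had 1.72% (interval 1.59 to 1.85%, 96 positions, chromosome 11 from 59305849 to 59307849), with columns from 1.38 to 2.87% and a median of 1.57%. The highest columns of both genes lay below the lowest columns of Wnt1, Wnt2 and Wnt3. Wnt10b, Wnt2b, Wnt5b, Wnt11, Wnt3a and Wnt10a followed with 2.87, 2.90, 3.77, 4.51, 4.65 and 4.93%, and the columns of neighbours in this order overlapped. Wnt7b, a signal of lung and brain vessels, had 6.53% at its better measured end. With windows of 500 bp, Wnt5b, Wnt10a and Wnt7b had 14.3, 13.9 and 1.28%, so the order within this range depends on the window.

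Wnt3, which the mouse embryo needs to form the primitive streak, had a start level of 9.57% (interval 9.34 to 9.82%) over 130 positions, the most of any member, on chromosome 11 from 103773175 to 103775175. Its columns lay close together, from 8.38 to 10.7% with a median of 9.52%. The level was not even over this window. In the 4 bins of 250 bp before the start it was 3.83, 4.59, 3.21 and 2.02%, and in the 4 bins after it 10.4, 17.9, 25.2 and 24.3%. The methylated part of the Wnt3 start thus lay inside the gene. Wnt3a, a close relative that acts in the tail bud and somites, showed no such pattern inside the gene: it had 3.52, 4.91, 2.75 and 4.09% in the 4 bins after the start. Before the start it had 2.57% in the nearest bin, 6.34% in the next and 12.9%, over 3 positions, beyond that.

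Wnt1, a midbrain signal, had 9.68% over 28 positions with columns from 6.72 to 15.2% and a median of 9.58%. Wnt2, which acts in placenta and lung, had 9.78% over 14 positions with columns from 6.03 to 15.6% and a median of 9.60%. The column ranges of Wnt1, Wnt2 and Wnt3 overlapped, and differences within the same column were not tested. In Wnt1 the level was higher away from the gene, at 4.92% in the 250 bp before the start and 17.3% in the 250 bp before that, and no bin after the start was measured. The Wnt1 level was above 20% with a coverage of at least 20 reads (20.9%) and with windows of 2000 bp (21.2%). The window of Wnt2 lies at the outer end of its gene record, and the start in the RefSeq promoter table, to which the printed sequence belongs, lies inside the record at 18030445 on chromosome 6. Within 1000 bp of that start Wnt2 had 9.15% over 33 positions, with columns from 5.19 to 14.4% and a median of 9.60%, a level within the spread of the one at the outer end.

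The highest ligand levels belonged to Wnt5a, Wnt8a and Wnt9b. Wnt5a, a non-canonical ligand of axis elongation, had 31.6% (interval 30.6 to 32.6%) at its better measured end, over 25 positions on chromosome 14 from 28503543 to 28505543. Its columns ranged from 27.9 to 34.4% with a median of 31.9%, and with windows of 2000 bp its level was 11.1%. Wnt8a, a ligand of the primitive streak, had 26.8% (interval 25.8 to 27.7%) over 27 positions at its better measured end on chromosome 18 from 34547061 to 34549061, with columns from 19.0 to 29.7% and a median of 28.2%, the widest range among the ligands. Its other end had 38.7% over 6 positions, so neither end of Wnt8a had a level under 20% over the columns together. The columns of Wnt5a and Wnt8a overlapped.

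Wnt9b, which acts in kidney tubules and the face, had 19.6% (interval 19.1 to 20.2%) at the outer end of its gene record, on chromosome 11 from 103774272 to 103776272, with columns from 16.2 to 20.8% and a median of 19.6%. That window is not independent of Wnt3, since the record of Wnt9b ends inside Wnt3 and 52 of its 55 positions are also counted for Wnt3. The start that the RefSeq promoter table gives for Wnt9b lies on chromosome 11 at 103749821. Within 1000 bp of it the level was 2.64% over 71 positions, with columns from 1.43 to 3.70% and a median of 2.71%. The values at both places do not overlap between columns, and the choice of start thus decides the place of Wnt9b among the ligands. Wnt6 also has a start away from its record's outer end, and 4 positions within 1000 bp of that start gave 0.387%, below every level at an outer end. The columns of this Wnt6 start ranged from 0 to 4.08% with a median of 0% and overlapped those of Fzd5, 0.384 to 1.28%.

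Receptor starts formed a narrow group. Fzd5, which the yolk sac vessels need, had the lowest level of the 32 starts and better measured ends, 0.736% (interval 0.657 to 0.825%) over 98 positions on chromosome 1 from 64736750 to 64738750, and its columns ranged from 0.384 to 1.28% with a median of 0.683%. Fzd1 had 0.874% (interval 0.767 to 0.994%) over 65 positions on chromosome 5 from 4757216 to 4759216, with columns from 0.616 to 1.34% and a median of 0.874%. Fzd3, which guides axons, Fzd7, a receptor of pluripotent and mesoderm cells, and Fzd8 had 1.05, 1.09 and 1.09%. Fzd4, known for its part in retinal vessels, had 1.72%, and Fzd9, a gene of the region deleted in Williams syndrome in humans, 2.20% over 124 positions on chromosome 5 from 135250047 to 135252047, with columns from 1.39 to 3.55% and a median of 2.07%. Fzd2 had 2.27% (interval 2.09 to 2.45%) over 95 positions on chromosome 11 from 102603431 to 102605431. Its columns ranged from 1.66 to 4.20% with a median of 2.07%. The column ranges of neighbouring receptors in this order overlapped, and differences within the same column were not tested. For example, Fzd4 lay above Fzd8 in every column except column 1, where they had 1.91 and 2.17%. With windows of 2000 bp the levels of Fzd5, Fzd1, Fzd7, Fzd8, Fzd2 and Fzd9 were 2.57, 4.27, 2.97, 2.37, 11.6 and 13.5%.

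Fzd10 had the highest receptor level in windows of 1000 bp, 4.82% (interval 4.61 to 5.04%) over 121 positions on chromosome 5 from 128600106 to 128602106. Its columns ranged from 3.08 to 6.03% with a median of 5.17%, and the lowest of them exceeded the highest columns of Fzd1, Fzd3, Fzd4, Fzd5, Fzd7 and Fzd8. Around its start the level was 0.669% in the 250 bp before and 2.94% in the 250 bp after, and it reached 15.1% in the last 250 bp of the window inside the gene. Fzd10 was not the highest receptor in other windows: with 500 bp it had 2.02% and Fzd2 3.27%, and with 2000 bp it had 8.91%, below Fzd2 and Fzd9.

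Antagonist levels were spread widely, from 3.61 to 84.8%, through the better measured ends. The 4 antagonists of known strand lay between 5.52 and 8.63%. Sfrp1 had the lowest level, 3.61% (interval 3.39 to 3.83%) over 74 positions at its better measured end on chromosome 8 from 23410383 to 23412383, with columns from 2.70 to 5.54% and a median of 3.73%. With windows of 500 and 2000 bp it had 1.99 and 5.80%. Sfrp5, which marks the anterior visceral endoderm, had 5.52% (interval 4.59 to 6.63%) over only 7 positions on chromosome 19 from 42201252 to 42203252, and its columns ranged from 2.04 to 7.74% with a median of 6.20%. Dkk1, which the embryo needs to form the head, had 5.59% over 46 positions, with columns from 4.25 to 7.81% and a median of 5.18%. Dkk2 had 7.73%. Sfrp2 had 8.63% over 34 positions on chromosome 3 from 83764750 to 83766750 and the widest columns of the class, from 4.52 to 16.4% with a median of 8.26%. At these outer ends the columns of Sfrp5, Dkk1 and Sfrp2 overlapped. The promoter-table start of Sfrp2 lies inside its record at 83766321. Within 1000 bp of that start Sfrp2 had 11.7% over 72 positions, with columns from 8.75 to 14.9% and a median of 11.4%.

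Sfrp4 and Dkk3 followed with 12.8 and 14.5% at their better measured ends. Dkk3, a divergent Dickkopf protein, had an interval of 13.7 to 15.3% over 27 positions on chromosome 7 from 112158482 to 112160482, and columns from 9.20 to 19.0% with a median of 14.8%. Dkk4 lay apart from every other member used for the classes, with 84.8% (interval 83.8 to 85.8%) over 16 positions at its better measured end on chromosome 8 from 22627018 to 22629018. Its columns ranged from 79.5 to 90.8% with a median of 85.1% and did not overlap those of any other start or better measured end. Its strand is not in the promoter table, so this need not be the level of its start.

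**Figure D2:**
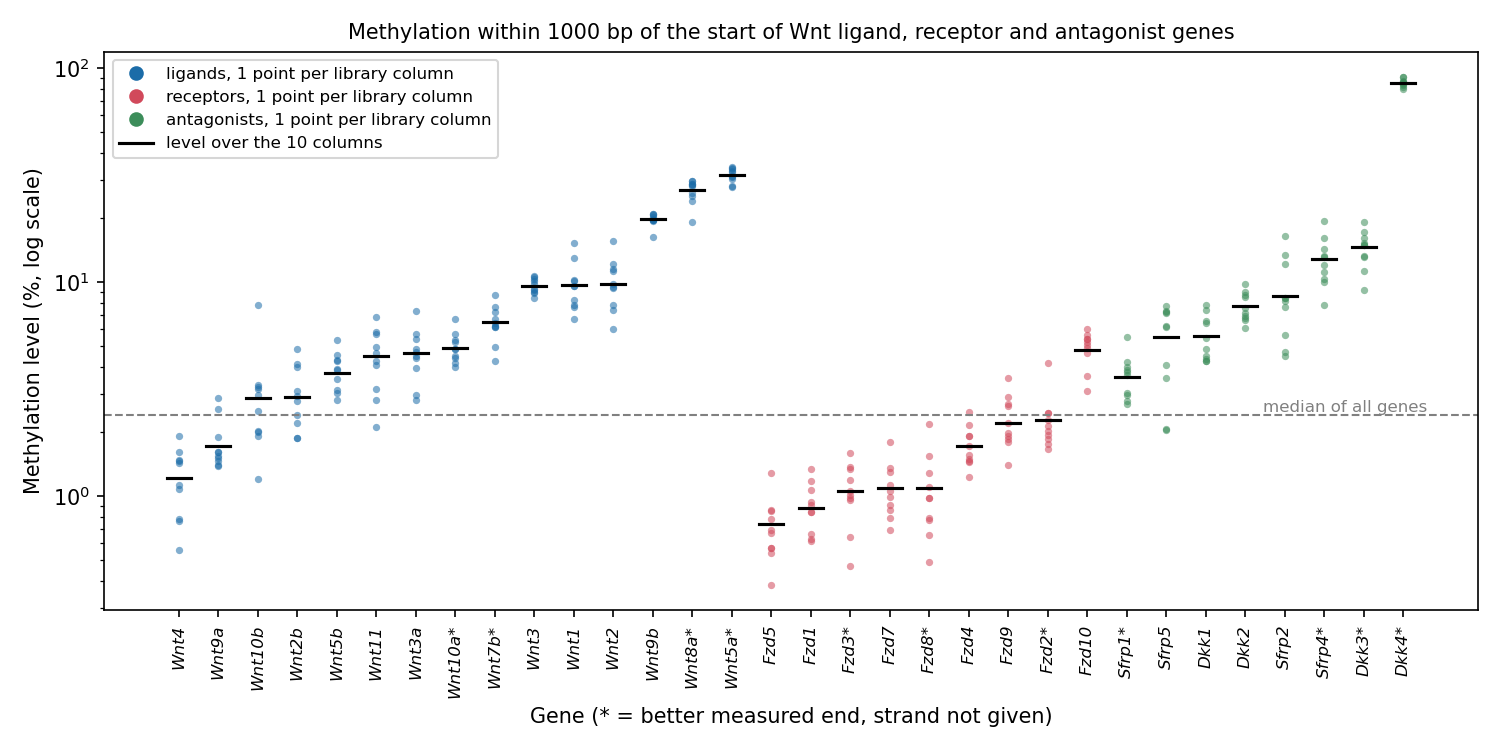
Methylation level within 1000 bp of the start or better measured end (y axis, percent, log scale) of each member, with 1 point per library column and a bar for the level over the 10 columns. The receptors lie between 0.736 and 4.82%, 13 of 15 ligands and 7 of 8 antagonists under 20%, and Dkk4 at 84.8%.

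Where both ends of a gene were measured, the end not used as the start was the more methylated. Both ends were measured for 7 members, and in 5 of them the ends lay on different sides of 20%, as they did in 65.6% of the 4022 genes with both ends measured, so this count was near the background. Fzd5 had 0.736% at the start and 60.1% (columns 43.3 to 73.2%, median 61.6%, 5 positions) at the far end. Fzd9, a short gene, had 2.20 and 57.6% (columns 53.2 to 68.1%, median 57.1%, 34 positions). Wnt11, which acts in kidney branching and cell movement, had 4.51% at the start on chromosome 7 from 98834084 to 98836084, with columns from 2.11 to 6.86% and a median of 4.48%, and 77.8% (columns 61.6 to 84.3%, median 80.6%, 3 positions) at the far end. Wnt9a had 1.72 and 36.8% (columns 32.7 to 45.2%, median 36.0%). Wnt7b, of strand not given, had 6.53% at its better measured end on chromosome 15 from 85580821 to 85582821 (columns 4.26 to 8.73%, median 6.33%) and 70.6% at the other (columns 63.7 to 77.4%, median 70.7%). In each of these 5 genes the columns of the ends did not overlap.

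The other measured far ends were more varied. Wnt10a, which acts in teeth and skin, was lowly methylated at both ends, with 4.93 and 13.2%. Wnt6, its neighbour on chromosome 1, had 5.15% at the far end (columns 2.84 to 7.63%, median 5.14%, 32 positions), while Wnt8b, a forebrain ligand, had 30.8% over 8 positions and Wnt16, a bone ligand, 59.3% over 5 positions. Over all genes, the end not used as the start had a median of 59.3% over 4964 genes, and 18.9% of these were under 20%.

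The interior of member genes, more than 1000 bp from either end, was less methylated than that of most genes. The median over 29 members with at least 3 interior positions was 25.3%, against 58.2% over 13910 genes. An interior level under 20% was found in 11 of 29 members, namely 6 of 17 ligands, 4 of 9 receptors and 1 of 3 antagonists, and in 9.12% of all genes. Short genes lie close to their starts throughout, and many members are short. Among genes of up to 10 kb, 7 of 10 members and 24.4% of all genes had an interior under 20%, and among longer genes 4 of 19 members and 5.99% of all genes. With 2000 bp left out at both ends, 5 of 25 members and 5.37% of all genes were under 20%. With the surroundings of promoter-table starts left out, 10 of 29 members and 6.16% of all genes were under 20%, and the member that was no longer under 20% was Sfrp2, at 30.4% over the 6 positions left.

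The lowest ligand interiors were those of Wnt10b, at 6.67% over 175 positions (columns 4.97 to 8.04%, median 6.80%), and Wnt10a, at 7.19% over 71 positions (columns 5.03 to 8.70%, median 7.09%). Wnt5a had 11.0% over 124 interior positions (columns 8.93 to 14.5%, median 10.9%), below the 31.6% at its better measured end, and the columns of both did not overlap. Wnt1, Wnt6 and Wnt8b had 11.7, 12.9 and 13.8%, Wnt3 and Wnt11 22.7 and 22.8%, and Wnt9b, Wnt3a, Wnt7b, Wnt2 and Wnt5b 25.0 to 30.5%. The interiors of Wnt2, Wnt5b, Wnt6, Wnt9b and Wnt11 include starts of the promoter table, and without 1000 bp on both sides of these starts they had 44.2, 32.2, 13.4, 31.9 and 36.7%. At the other extreme, Wnt2b had 79.4% over 26 positions (columns 73.4 to 86.7%, median 79.7%), Wnt4 65.7% over 114 positions (columns 62.3 to 68.3%, median 66.1%), and Wnt7a and Wnt9a 50.9 and 50.5%. Wnt4 and Wnt2b thus combined starts of 1.21 and 2.90% with interiors above the median of all genes.

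Receptor interiors fell into low and high values with a wide gap. Fzd5 had 7.64% over 154 positions (columns 6.06 to 9.13%, median 7.98%), and Fzd8, Fzd1, Fzd2, Fzd7 and Fzd10 11.9, 15.0, 17.5, 25.6 and 28.6%. Fzd3, Fzd6 and Fzd4 had 67.5, 69.5 and 69.8%, and the lowest columns of these 3 genes, 63.1, 61.5 and 64.3%, exceeded the highest column of any other receptor interior, the 31.8% of Fzd10. Fzd3 and Fzd6, receptors of planar cell polarity, are long genes of 70.0 and 32.0 kb, whereas Fzd4 spans 5.75 kb, near the 7.19 kb of Fzd5. Of the antagonists, Sfrp2 had 18.5%, Dkk3 32.4% and Sfrp1 56.7%.

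**Figure D3:**
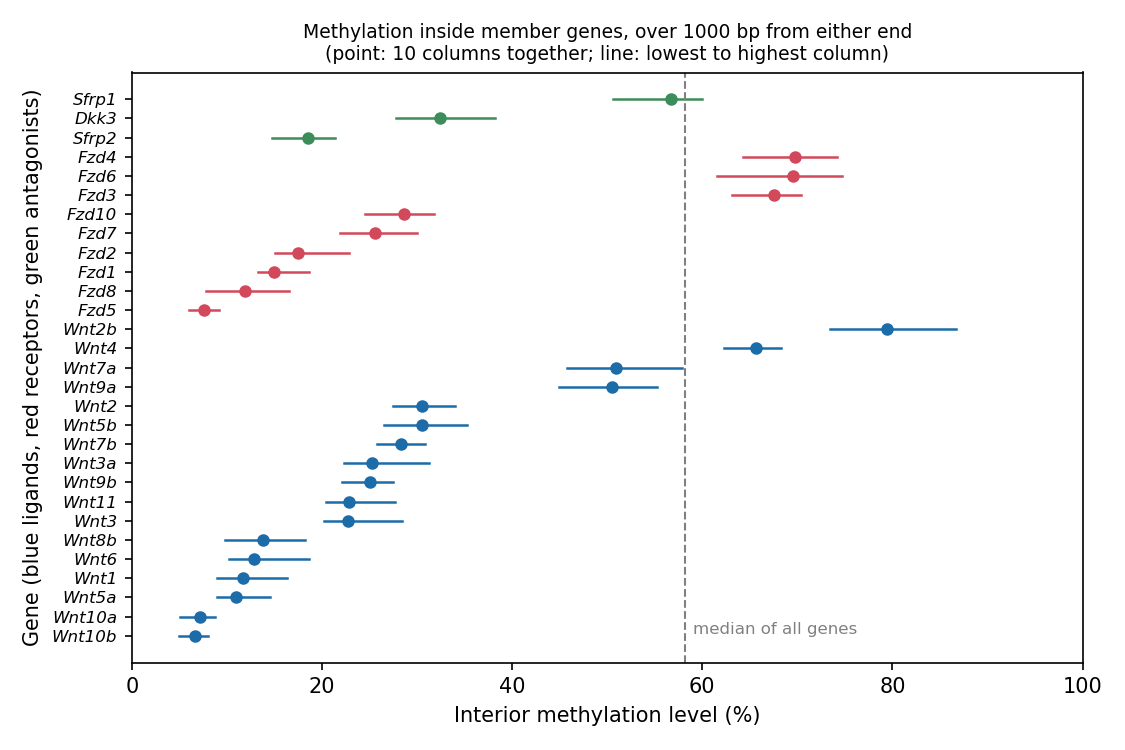
Methylation level inside each member gene more than 1000 bp from either end (x axis, percent), with a point for the 10 columns together and a line from the lowest to the highest column. Most members lie left of the median of all genes, 58.2%, while Wnt2b, Wnt4, Fzd3, Fzd4 and Fzd6 lie right of it.

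Low methylation extended into the gene from several outer 5' ends. Between 1000 and 2000 bp from that end, 9 of 9 ligands of known strand were under 20%, with a median of 6.40%, against 51.7% of 3769 genes and a median of 17.9%. The bin of Wnt9b lies in front of Wnt3 and that of Wnt2 upstream of its promoter-table start. Without both genes the count was 7 of 7 and the median 6.40%. This median is the level of Wnt7a over 3 positions, and the start of Wnt7a was not measured. The lowest levels were 1.23% in Wnt5b, 2.66% in Wnt11 and 3.70% in Wnt10b. The highest without Wnt9b and Wnt2 was 14.8% in Wnt3, over 3 positions. Nearer the start, Wnt3 had 25.2% from 500 to 750 bp and 24.3% from 750 to 1000 bp, so its low level was not continuous. Between 2000 and 3000 bp, 4 of 7 ligands were under 20%, or 2 of 5 without Wnt9b and Wnt2, against 27.6% of all genes. Of the receptors, 3 of 5 were under 20% between 1000 and 2000 bp, with 4.01% in Fzd5, 4.90% in Fzd7 and 6.86% in Fzd1, while Fzd10 had 28.6% and Fzd9 57.6%. In Fzd9 that bin is the far end of the gene.

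**Figure D4:**
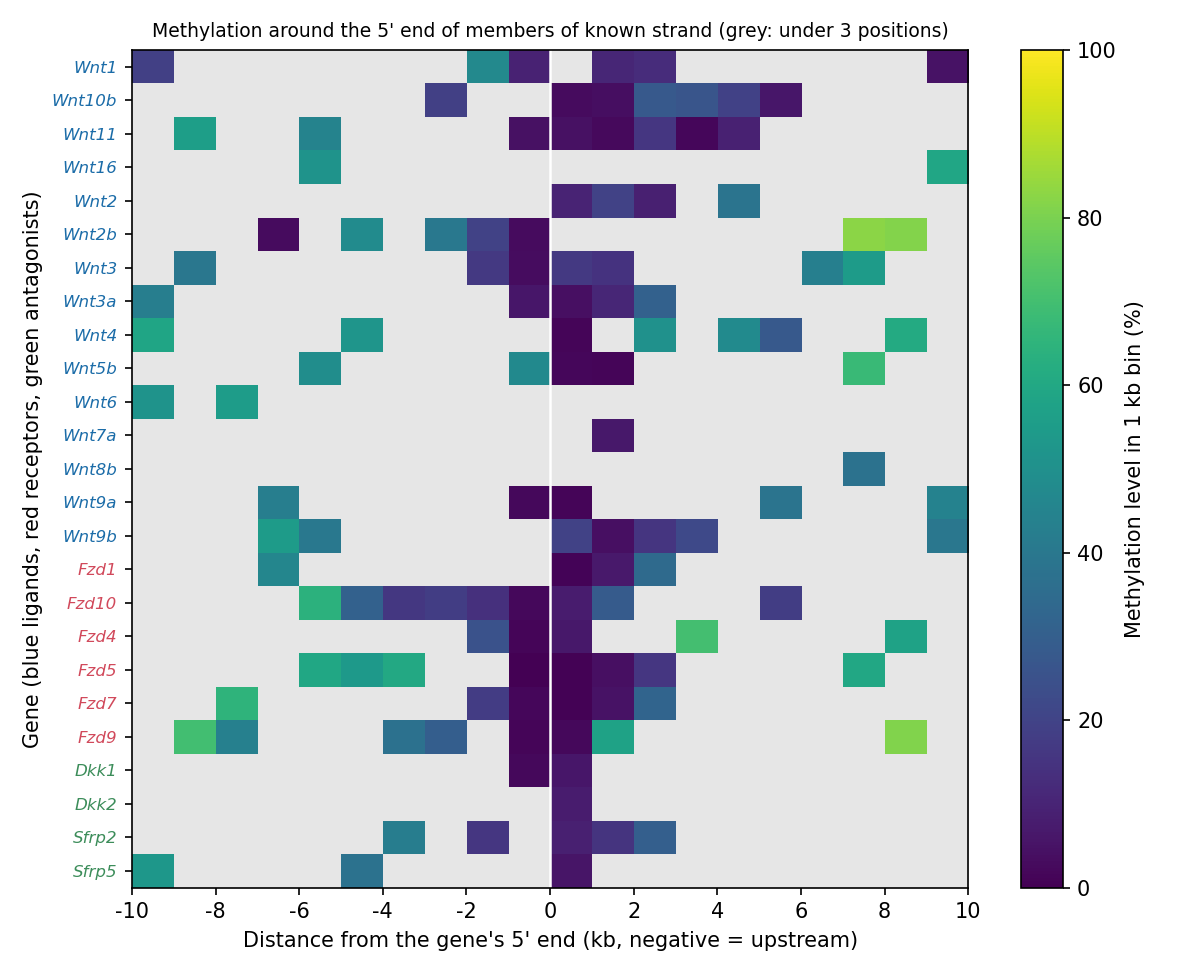
Methylation level in 1 kb bins (colour, percent) from 10 kb upstream to 10 kb downstream of the outer 5' end (x axis) of each member of known strand (y axis), with grey for bins under 3 positions. Dark bins of low methylation lie next to the 5' end and reach into several genes, such as Fzd5 and Wnt11, which had 4.01 and 2.66% between 1000 and 2000 bp.

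Several Wnt genes lie next to each other in the genome. Between Wnt10b and Wnt1 on chromosome 15, which point away from each other across 11650 bp with no other protein-coding gene between them, 29 positions more than 1000 bp from both genes had a level of 27.8% (columns 24.5 to 32.7%, median 28.4%). This level joins unlike parts. From 2000 to 3000 bp upstream of Wnt10b, 20 positions had 19.0%, and from 1000 to 2000 bp upstream of Wnt1, 9 positions had 47.1%. Between Wnt3a and Wnt9a on chromosome 11, which are likewise divergent across 16097 bp, only 3 positions were measured, at 42.6% (columns 32.5 to 54.6%, median 41.0%). Each taken as a whole, both gaps exceeded the start levels of the genes that flank them in each column, since the highest column of these 4 starts was the 15.2% of Wnt1. Between Wnt6 and Wnt10a, 6696 bp apart on chromosome 1, no position more than 1000 bp from both genes was measured.

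No column was high or low for all members. Column 3, which had the lowest coverage, was the highest column at 7 of 32 starts and at 13.8% of the starts of all genes. Column 9 was the highest at 4 of 32 and at 15.5% of all starts, and column 6 at 0 of 32 and at 6.66%. Columns 1, 6, 9 and 10 were each the lowest at 5 member starts, and over all genes at 6.10, 10.9, 10.8 and 8.69%. The median width from lowest to highest column was 1.23 percentage points for receptors, 4.53 for ligands and 7.74 for antagonists, against 3.05 for all genes. These widths go with the levels and with the number of positions, whose medians were 98.0, 35.0 and 30.5, and their parts were not tested. A difference between control and arsenic, if any, is part of these widths and cannot be told apart from other differences between columns.

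Other genes of the pathway, in a list of 46 names, were like most genes lowly methylated at the start or better measured end. Of 38 measured, 33 were under 20%, against the background of 80.9%, and 16 under 2%, against 45.8%. Both counts were thus near the background. The median of these genes was 3.33%, against 2.40% for all genes. Among 6 co-receptors, 5 were under 20%, with Lrp6 at 0.698% and Lrp5 at 76.5%, the latter at a better measured end. Notum, an enzyme that inactivates Wnt proteins, was the measured gene of secretion and release, at 1.88%. The group of R-spondins, their Lgr receptors and the ubiquitin ligase Znrf3, which removes Frizzled receptors from the surface and is blocked by R-spondins, had 8 of 8 under 20%, from 1.12% in Znrf3 to 13.2% in Rspo4. Other inhibitors and helpers, which include the membrane proteins Kremen1, Kremen2 and Apcdd1, ranged from 0.740% in Kremen1 to 66.3% in Cer1, with 5 of 8 under 20%, and Frzb, the Sfrp-family gene that the rule leaves out, had 5.48%. Of 11 intracellular genes, 10 were under 20%, with Dvl3 at 0.704% as the lowest and Ctnnbip1, over 4 positions, at 35.3% as the highest. Ctnnb1, which encodes beta-catenin, had 3.20%. The 4 Tcf and Lef factors lay between 0.669% in Tcf7l1 and 5.69% in Lef1.

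Methylation gives no direct reading of cell types. Of the markers of tissues that a dissected embryo can carry, 2 of 4 trophoblast genes were measured (Cdx2 0.915%, Esrrb 37.1%), 3 of 4 decidua genes (Bmp2 1.37%, Hand2 3.84%, Esr1 40.6%) and 3 of 4 blood genes (Cd34 9.92%, Runx1 75.3%, Csf1r 75.7%). Their part in the levels of the Wnt genes was not tested.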

How the data were processed

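Reduced representation bisulfite data of 10 embryo samples were used, 5 control and 5 arsenic by title. Trim Galore, Bismark, methylKit and mm10 are named per the submitters' processing notes, and the sources used here state no version or setting. The deposited values are raw counts per cytosine and strand, namely coverage, methylated and unmethylated calls, per the file headers. No value of coverage in the table was under 10 reads. Since none of the 10 numbered columns could be tied to a sample by name (0 of 10), the planned comparison of arsenic with control was not run, and the columns were used as unassigned libraries.

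Of 2137826 rows, 4 were left out because 2 positions were listed more than 1 time. Levels are summed methylated calls over summed coverage, in percent, within 1000 bp of a gene end, with at least 3 positions. Gene ends and promoters came from RefSeq tables of GRCm38.p6. The limit of 2%, the division by gene length and by CpG number, the promoter-table starts, the downstream bins and the share of genes with ends on different sides of 20% were chosen after the values were seen. Members, lists and the 20% limit were chosen with earlier results of these data known. Named with full values are the 3 highest and 2 lowest ligands, the 2 highest and 2 lowest receptors and antagonists, members whose ends lie on different sides of 20%, and the widest range of each class. Of the 46 pathway names, 2 were not matched to a gene. The window code was tested on simulated data. Python 3.11.15, numpy 2.4.6, scipy 1.17.1, pandas 2.3.3 and matplotlib 3.10.9 were used.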

Additional observations from a re-analysis of the deposited data

Results flagged for a closer look

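Over 88 sets of 10 column values (42 gene ends, 29 interiors and 17 promoters of 300 bases), 11 had a column set apart from the rest by Dixon's test. Chance flags about 1 in 20 sets, and sets of the same gene share reads. The columns are not a group of replicates, since they hold control and arsenic samples together.

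In the Wnt9a promoter, column 3 had 13.3%, 28 methylated of 210 calls, and the next column 1.32%. At each of the 21 positions column 3 had 10 reads, and at 14 positions 2 of the 10 reads were methylated and at the other 7 none. In the Fzd7 promoter, column 8 had 4.61% and the next column 1.93%. In a promoter of Wnt5b on chromosome 6 from 119449337, column 7 had 13.7% and the next 9.65%. In the Fzd10 promoter, column 3 had 0%, 0 of 318 calls, and the next 0.475%. These calls come from 18 neighbouring positions on the plus strand, which share reads, so they stand for far fewer reads.

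Of the ends, Fzd2 had 4.20% in column 10 with the next at 2.44%, Fzd5 1.28% in column 5 with the next at 0.859%, and Wnt10b 7.79% in column 9, 25 of 321 calls, with the next at 3.31%. The other end of Wnt10a was lowest in column 7, at 9.48% with the next at 12.9%, and the outer end of Wnt9b in column 9, at 16.2% with the next at 19.2%. Of the interiors, Wnt1 had 16.3% in column 9 with the next at 12.9%, and Wnt11 27.7% in column 10 with the next at 23.7%. The cause of these differences was not tested.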

How the results depend on the processing

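The order receptor, ligand, antagonist of the class medians held in 19 of 20 alternatives. The exception was the other end of the gene, where 8 ligands had 37.7%, 2 receptors 58.8%, no antagonist was measured and 2 of 10 members were under 20%. Many alternatives could change little, so the count is no measure of how firm the order is. Each run without 1 column keeps most of the data. A minimum of 5 positions removed no start, since the fewest was 7. Leaving out the most covered positions gave the same class medians. At a coverage of at least 20 reads the ligand, receptor and antagonist medians were 6.71, 1.57 and 9.67%. The ligand median was 5.94% with windows of 500 bp and 5.84% at the end with more positions. The receptor median was 2.97% with windows of 2000 bp, 1.26% with positions weighted equally and 1.41% for genes of known strand, and the antagonist median 6.66% for genes of known strand and 9.71% at the starts of the promoter table. Members with an interior under 20% numbered 5 with 2000 bp left out. Leaving out each column gave ligand medians of 4.76 to 5.06%, receptor medians of 1.06 to 1.15%, antagonist medians of 7.80 to 8.51%, and 29 starts and 11 interiors under 20% each time. Besides the other end, Wnt1 crossed 20% at 20 reads, Wnt9b with 500 bp, and Wnt5a and Wnt1 with 2000 bp. The promoter-table starts, the genes of known strand and all alternatives for the interior were added after the values were seen. At the lowest coverage of 10 reads a position in a column resolves no step finer than 1 read of 10. No paired analysis was possible because no column names a sample. The cause of these changes was not tested.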
